A study of Gallus gallus with 9 samples.

Results

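ENPP2 and the lysophosphatidic acid (LPA) receptor genes LPAR1, LPAR4 and LPAR6 were described in chicken preadipocytes, the fibroblast-like cells of fat tissue that can become adipocytes. These 4 genes, of 13009 with a single symbol on the array, were found by their symbols in the platform annotation, and 9 of the 38439 probe sets tested measure them. They were selected on how far and in which direction their values varied over these same arrays, so those values are given as a description with no test. The preadipocytes came from abdominal fat of 19-wk Lohman laying hens, and their RNA was hybridized after 96 hr of culture to 9 Affymetrix Chicken Genome arrays, 3 for each group. Control cells were kept in Dulbecco's modified Eagle's medium with fetal bovine serum, which the other groups received as well. Cells titled DMIOA received 500 nM dexamethasone, a glucocorticoid, with oleic acid at 300 μM, insulin at 20 μg/mL, and 3-isobutyl-1-methylxanthine, which slows the breakdown of cyclic AMP, at 0.5 mM. Cells titled DMIOA+20S, here DMIOA+20(S), received the same agents and 5 μM 20(S)-hydroxycholesterol, an oxysterol. Nothing in the sources used here ties an array to a hen, so any p-value measures only the spread between these arrays, and the number of arrays limits the precision.

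ENPP2 encodes autotaxin, a secreted enzyme that cuts choline from lysophosphatidylcholine and so forms LPA outside the cell. LPA is a signalling lipid that acts through G protein-coupled receptors, of which LPAR1 belongs to the same family as the sphingosine 1-phosphate receptors and LPAR4 and LPAR6 to a family close to the purine receptors. In mammals autotaxin is made by adipocytes and its RNA rises as preadipocytes differentiate, and LPA acting on LPAR1 keeps preadipocytes dividing. Lipid phosphate phosphatases (PLPP genes) end the signal by removing the phosphate of LPA.

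The titles did not match how alike the arrays were. Over all probe sets but the 9 of the 4 genes, control 1, control 2 and DMIOA 1 correlated with each other at a Pearson r of 0.994 to 0.997 and with the other 6 arrays at 0.970 to 0.976, although DMIOA 1 carries another title. The remaining arrays were taken as DMIOA 2 with DMIOA+20(S) 1 and 2 (r = 0.993 to 0.997), and as the 3 arrays titled replicate 3 (r = 0.993 to 0.996), whose titles are worded differently from the rest. Between these last sets r was 0.989 to 0.995, and a tree of all probe sets divided into 3 branches found only the first set. It put DMIOA+20(S) 2 and DMIOA+20(S) 3, which share a title (r = 0.995), on a branch of their own. A tree by Spearman (rank) correlation put DMIOA+20(S) 2 with the replicate 3 arrays. A tree from which dim probe sets were left out (those under 4 on 7 or more arrays) found all 3 sets. Values are therefore shown for each array under its title, and the 3 sets are compared only by whether their ranges overlap, with no average and no test. Array medians lay between 2.11 and 2.14, and every value below is the deposited log2 value, so that a difference of 1 is 2-fold. Of 11 stromal preadipocyte markers, 9 reached a log2 value of 4, with COL1A1, a collagen chain, at 13.80 to 14.11, while the precursor cell markers PDGFRA and DLK1 stayed at 1.05 to 2.15 and 1.16 to 1.27.

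ENPP2 was near the floor of the array on 3 arrays and bright on the other 6. Its first probe set (GgaAffx.10515.1.S1_at, the one with the highest mean of the gene) gave 2.42 in control 1, 2.28 in control 2 and 1.92 in DMIOA 1. It gave 10.45 in DMIOA 2, 10.50 in DMIOA+20(S) 1 and 10.38 in DMIOA+20(S) 2. The arrays titled replicate 3 gave 9.56 for control, 9.26 for DMIOA and 9.66 for DMIOA+20(S). The lowest of the 6 bright arrays thus lay 6.84 above the highest of the 3 dim ones, a 115-fold gap, and the dim set joins both low controls with 1 array titled DMIOA. Within the bright arrays, the 3 titled replicate 3 lay below the other 3 by at least 0.73, or 1.66-fold. The span of 8.59 over the 9 arrays was exceeded by 1 gene of 13009. GCRMA, the authors' normalization, pulls dim signals to a shared floor, so the size of a gap that ends at the floor is uncertain.

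The second ENPP2 probe set (Gga.11463.2.S1_s_at) was dimmer but ordered the 3 dim arrays and the rest in the same way. It gave 1.93 in control 1, 2.48 in control 2 and 2.59 in DMIOA 1, against 6.38 in DMIOA 2, 5.85 in DMIOA+20(S) 1 and 7.25 in DMIOA+20(S) 2. The replicate 3 arrays gave 5.59 for control, 4.75 for DMIOA and 5.92 for DMIOA+20(S). The gap was 2.15, or 4.44-fold, and here the ranges of the 2 bright sets overlapped. Names ending in _s_at mark probe sets whose probes are shared by several transcripts.

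**Figure D1:**
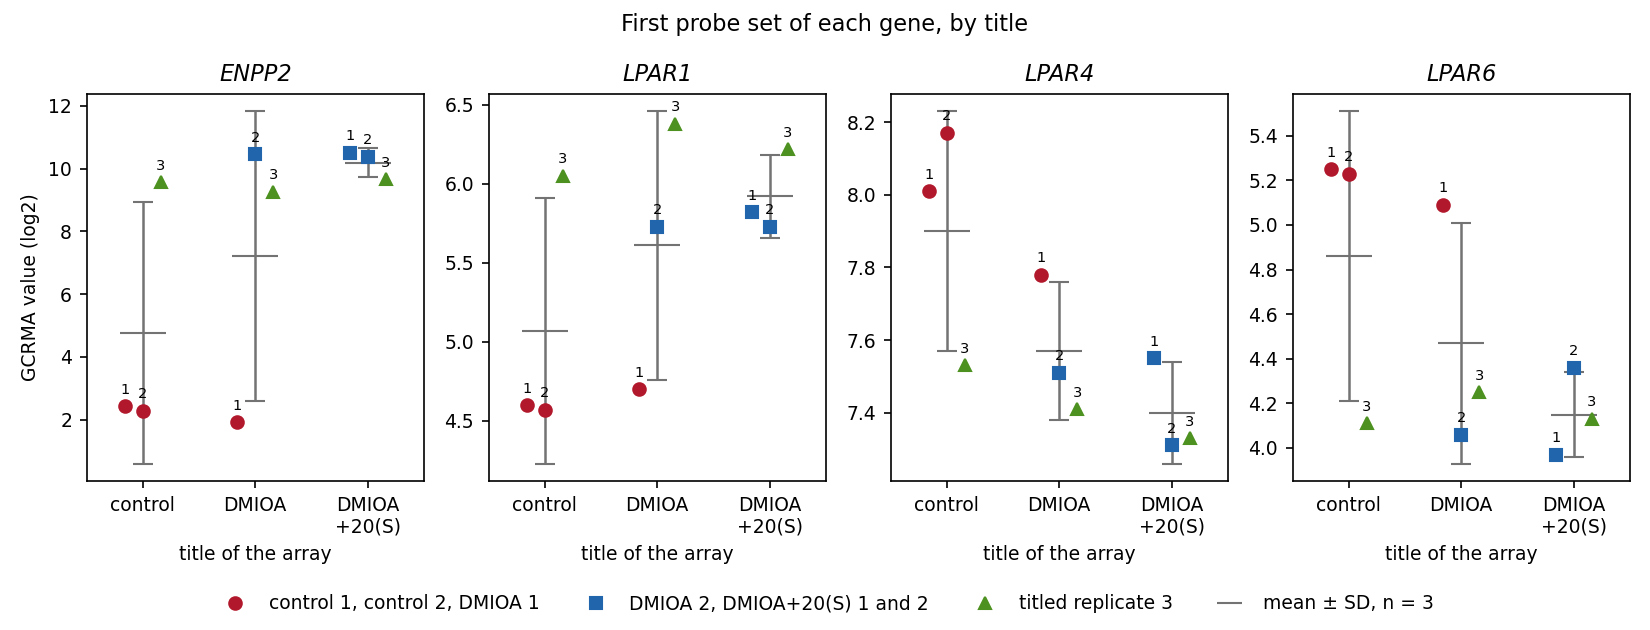
Deposited log2 values (vertical axes, each with its own scale) of the first probe set of ENPP2, LPAR1, LPAR4 and LPAR6 for the arrays titled control, DMIOA and DMIOA+20(S); numbers are replicate numbers, colours and shapes the 3 sets of like arrays, grey lines the mean ± SD (n = 3). ENPP2 in control 3 (9.56) sits with the treated arrays, and ENPP2 in DMIOA 1 (1.92) sits with control 1 and control 2.

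LPAR1, the receptor best known from studies of mammalian preadipocytes, was also low on the 3 arrays with little ENPP2 signal, but over a far smaller range. Its first probe set (Gga.9756.1.S1_at) gave 4.60 in control 1, 4.57 in control 2 and 4.70 in DMIOA 1. DMIOA 2, DMIOA+20(S) 1 and DMIOA+20(S) 2 gave 5.73, 5.82 and 5.73, and the replicate 3 arrays gave 6.05 for control, 6.38 for DMIOA and 6.22 for DMIOA+20(S). The 3 sets did not overlap, with a gap of 1.04 (2.05-fold) above the low set and of 0.23 (1.17-fold) between the other 2. The replicate 3 arrays were the highest for LPAR1, whereas for ENPP2 they lay between the other sets. The second LPAR1 probe set (Gga.19720.1.S1_at) ranged from 3.80 to 3.93 on the low set and from 4.68 to 5.49 on the other 6 arrays, a gap of 0.75, with the replicate 3 arrays (4.71 to 5.49) overlapping the rest (4.68 to 5.13). On the low set this second probe set lay under 4, the value under which signals are taken as dim here, so the size of its gap is uncertain. Of all genes, 7.90% had a wider span than the 1.81 of the first LPAR1 probe set.

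LPAR4, a receptor that raises cyclic AMP in mammalian cells, and LPAR6 differed in the opposite direction. The first LPAR4 probe set (Gga.11466.1.S1_at) gave 8.01 in control 1, 8.17 in control 2 and 7.78 in DMIOA 1, then 7.51 in DMIOA 2, 7.55 in DMIOA+20(S) 1 and 7.31 in DMIOA+20(S) 2. In the replicate 3 arrays it gave 7.53 for control, 7.41 for DMIOA and 7.33 for DMIOA+20(S). The first 3 arrays were the highest, but by a gap of only 0.23 (1.17-fold), and 31.4% of all genes spanned more than its 0.86. The other LPAR4 probe sets did not show this order. Gga.11466.2.S1_a_at ranged from 3.95 to 5.03 on the same 3 arrays, from 3.29 to 4.86 on the next 3 and from 3.14 to 4.45 on the replicate 3 arrays, and its 3 highest values were those of DMIOA 1, DMIOA+20(S) 2 and DMIOA+20(S) 3. Gga.19176.1.S1_at lay between 1.34 and 1.57 on every array, and 96.8% of genes spanned more. Only the first LPAR4 probe set therefore carries the difference, and it is small.

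LPAR6, a receptor needed for hair growth in humans, was higher on the arrays where ENPP2 was near the floor. Its first probe set (Gga.663.1.S1_at) gave 5.25 in control 1, 5.23 in control 2 and 5.09 in DMIOA 1. It gave 4.06 in DMIOA 2, 3.97 in DMIOA+20(S) 1 and 4.36 in DMIOA+20(S) 2, and in the replicate 3 arrays 4.11 for control, 4.25 for DMIOA and 4.13 for DMIOA+20(S). The gap was 0.73, or 1.66-fold, the latter 6 arrays formed 1 overlapping range, and 16.0% of genes spanned more than the 1.28 of this probe set. These 6 arrays lay at about 4, the value under which signals are taken as dim here, so the size of this gap is uncertain. The second LPAR6 probe set (Gga.544.1.S1_s_at) was dim throughout, at 2.45 to 2.72 on the first 3 arrays and 1.88 to 2.46 on the others, which overlapped by the values 2.45 and 2.46. Of the 9 probe sets, 6 separated the 3 arrays from the rest, 4 with low and 2 with high values on them, and 3 did not. Over the whole array 22.1% of probe sets separated these arrays in either direction, so the separation itself is common here, and the genes were chosen with it known. DMIOA 2 with DMIOA+20(S) 1 and 2 did not overlap the replicate 3 arrays in 2 of the 9, the first probe sets of ENPP2 and LPAR1, against 14.5% of all probe sets.

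**Figure D2:**
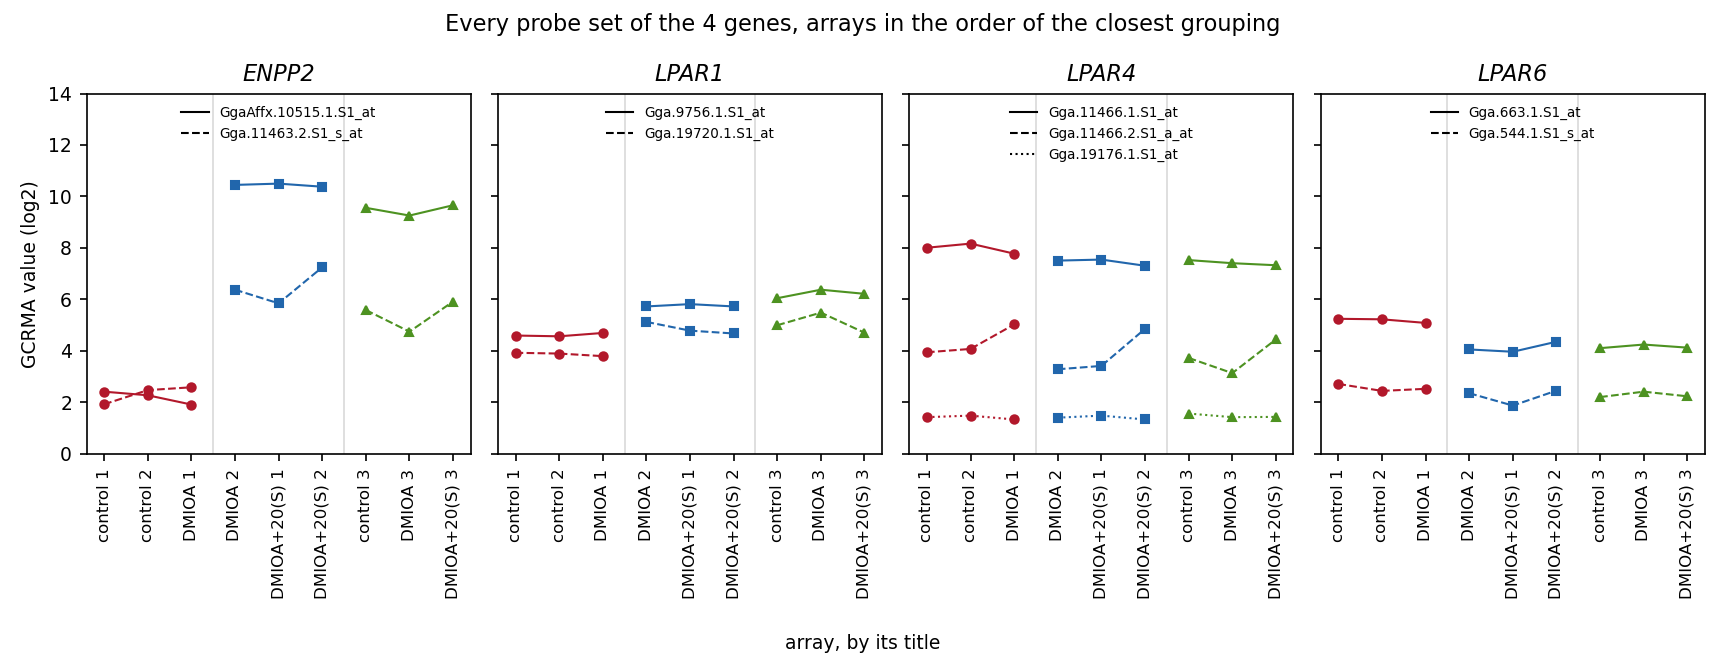
Deposited log2 values (vertical axis) of all 9 probe sets of the 4 genes over the 9 arrays (horizontal axis, by title, in the order of the 3 sets of like arrays); line styles mark the probe sets of a gene. Both ENPP2 and both LPAR1 probe sets are lowest on control 1, control 2 and DMIOA 1, whereas 1 of 3 LPAR4 and 1 of 2 LPAR6 probe sets are highest there.

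A second pattern ran within the 3 sets. In the second ENPP2 probe set and in Gga.11466.2.S1_a_at of LPAR4, the highest array of each set was DMIOA 1, DMIOA+20(S) 2 and DMIOA+20(S) 3. Among all probe sets this combination of highest arrays was the most frequent of the 27 possible, at 3977 probe sets or 10.3%. None of the first probe sets of the 4 genes had it.

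The comparisons by title ask what the DMIOA cocktail changed, and what 20(S) added to it. Whether the titles of control 3 and DMIOA 1 are right was not tested, and the differences below describe the cocktail and 20(S) only if they are. By title, ENPP2 averaged 4.76 ± 4.16 (SD, n = 3) in control, 7.21 ± 4.62 in DMIOA and 10.18 ± 0.46 in DMIOA+20(S), and the wide spread of the first 2 groups comes from control 3 and DMIOA 1. DMIOA exceeded control by 2.45 (SE 2.52), a difference that became 5.10 without DMIOA 1, 4.86 without control 3 and 0.83 without DMIOA 2. It was 3.83 in replicates 1 and 2 and -0.30 in replicate 3. DMIOA+20(S) exceeded DMIOA by 2.97 (SE 2.52), or 0.32 without DMIOA 1 and 4.59 without DMIOA 2, with 4.26 in replicates 1 and 2 and 0.39 in replicate 3. DMIOA+20(S) exceeded control by 5.43 (SE 2.52), with 8.09 in replicates 1 and 2 and 0.09 in replicate 3, where control and treated arrays were nearly level. These last 2 groups did not overlap for either ENPP2 probe set, but for the first by only 9.66 against 9.56, and 13.5% of all probe sets did not overlap in this comparison. The wording of the replicate 3 titles may mark a batch, and within it the largest difference of the first ENPP2 probe set between titles was 0.39. The second ENPP2 probe set differed more there, with single arrays compared. It gave -0.84 for DMIOA against control, 1.17 for DMIOA+20(S) against DMIOA and 0.33 for DMIOA+20(S) against control.

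The receptors differed less by title. LPAR1 averaged 5.07 ± 0.84, 5.61 ± 0.85 and 5.92 ± 0.26 (SD, n = 3) in control, DMIOA and DMIOA+20(S), with differences of 0.53 for DMIOA over control, 0.32 for DMIOA+20(S) over DMIOA and 0.85 for DMIOA+20(S) over control (SE 0.50 each). In replicate 3 the same differences were 0.34, -0.16 and 0.17. The first difference was 1.02 without control 3, 0.99 without DMIOA 1 and 0.15 without DMIOA 3, the second was -0.13 without DMIOA 1 and 0.71 without DMIOA 3, and the third was 1.34 without control 3. The second LPAR1 probe set gave 0.53, -0.08 and 0.45 in the same order (SE 0.45), and 0.49, -0.78 and -0.30 in replicate 3. LPAR4 averaged 7.90 ± 0.33, 7.57 ± 0.19 and 7.40 ± 0.14, with differences of -0.34, -0.17 and -0.51 in the same order (SE 0.18), and of -0.12, -0.08 and -0.20 in replicate 3. With single arrays left out the 3 differences ranged from -0.52 (without control 3) to -0.20 (without control 2), from -0.25 (without DMIOA+20(S) 1) to -0.06 (without DMIOA 1) and from -0.69 (without control 3) to -0.37 (without control 2). LPAR4 was thus the only one of the 4 genes whose first probe set had the same sign in replicate 3 as over all arrays in all 3 comparisons, but with the mean over its 3 probe sets the difference of DMIOA+20(S) from DMIOA was 0.09. LPAR6 averaged 4.86 ± 0.65, 4.47 ± 0.54 and 4.15 ± 0.19, with differences of -0.40, -0.32 and -0.71 (SE 0.36), and of 0.14, -0.12 and 0.02 in replicate 3. Their ranges with single arrays left out were -0.77 (without control 3) to -0.19 (without DMIOA 2), -0.52 (without DMIOA 2) to -0.01 (without DMIOA 1) and -1.09 (without control 3) to -0.52 (without control 1). The groups of LPAR1, LPAR4 and LPAR6 overlapped by title in every comparison. Over all probe sets, 5.25% did not overlap for DMIOA against control, 6.91% for DMIOA+20(S) against DMIOA and 13.5% for DMIOA+20(S) against control.

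**Figure D3:**
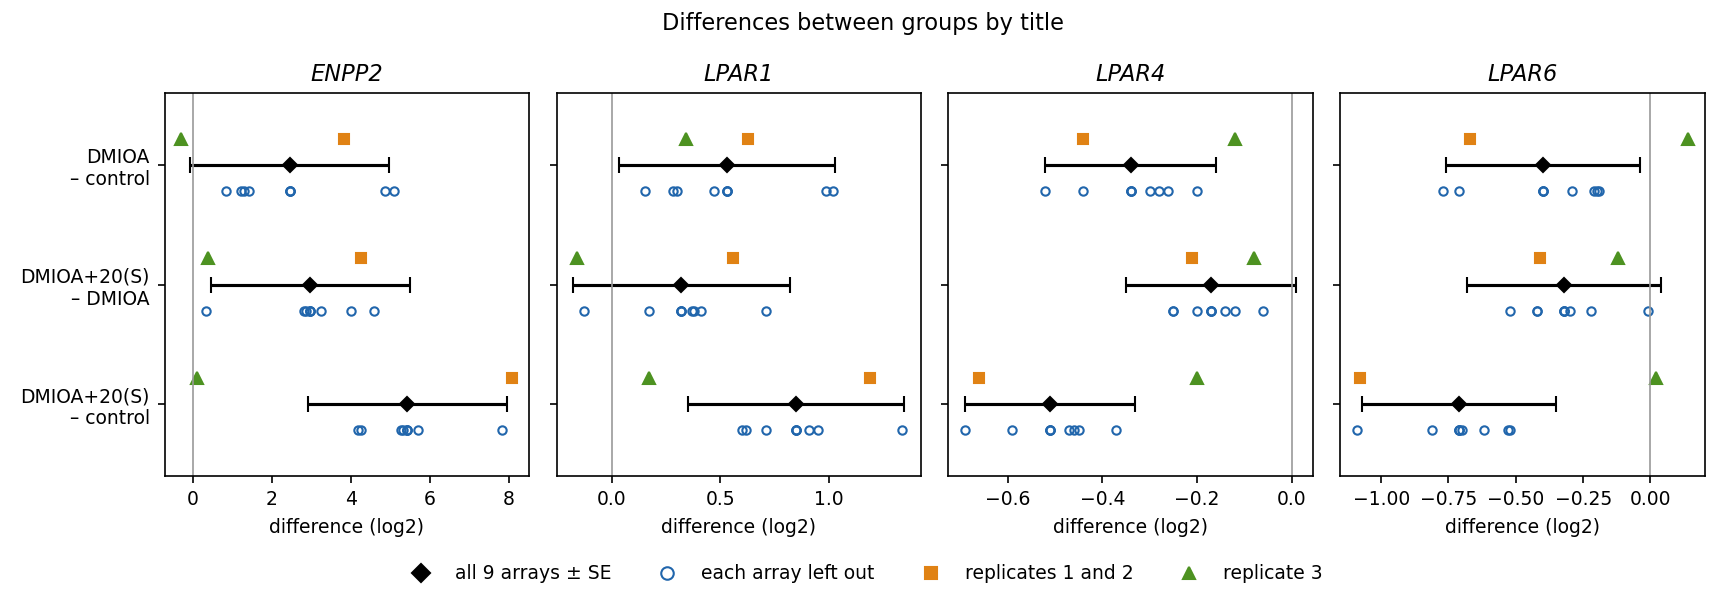
Differences between groups by title on the log2 scale (horizontal axes, each with its own scale) for the first probe set of each gene in the 3 comparisons (rows); diamonds with bars are all 9 arrays with the limma SE, open circles each array left out in turn, squares replicates 1 and 2, triangles replicate 3. For ENPP2 the difference of DMIOA+20(S) from control is 8.09 in replicates 1 and 2 and 0.09 in replicate 3.

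With the limma fit over all 9 arrays by title, few probe sets of the whole array passed both thresholds, a Benjamini-Hochberg adjusted p under 0.05 and a 2-fold difference. None was called for DMIOA against control (0.0%, smallest adjusted p 0.994, 905 at an unadjusted p under 0.05) and none for DMIOA+20(S) against DMIOA (0.0%, smallest adjusted p 0.977, 1099 unadjusted). For DMIOA+20(S) against control 2 were called (0.0052%, 3880 unadjusted), TNPO1 and RPS6KA6, and neither of them was called when any single array was left out.

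The other listed receptors were low or varied little. LPAR2 lay between 4.14 and 4.88, LPAR3 between 2.17 and 2.53, and LPAR5 between 1.68 and 2.12. P2RY10, which responds to lysophosphatidylserine in mammals, lay between 1.21 and 1.68 and GPR35 between 1.12 and 1.64. LPAR2 was 0.35 (SE 0.11) higher in DMIOA+20(S) than in DMIOA and 0.45 (SE 0.11) higher than in control, and its groups by title did not overlap in either, as was so for 6.91% and 13.5% of all probe sets. With limma the adjusted p was 0.977 and 0.492. Its values were 4.27, 4.14 and 4.34 in control, 4.21, 4.44 and 4.41 in DMIOA and 4.56, 4.67 and 4.88 in DMIOA+20(S) for replicates 1, 2 and 3. LPAR2 also lay lower on control 1, control 2 and DMIOA 1 than on the rest, by a gap of 0.07, and its whole span was 0.73.

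Besides the 4 genes, 69 of 81 listed genes of LPA production, removal and reception, of the ENPP family, of lysophosphatidylcholine use, of receptor coupling and of sphingosine 1-phosphate were measured. None was called in any of the 3 comparisons, with 0 at an unadjusted p under 0.05 between DMIOA and control, 1 between DMIOA+20(S) and DMIOA, and 7 between DMIOA+20(S) and control. These are 0.0%, 1.45% and 10.1% of the 69, against 2.35%, 2.86% and 10.1% of all probe sets. Each of the 69 is counted by its first probe set, whereas all probe sets include dimmer ones and ones without a symbol, so the shares are not like for like. The median difference of the 69 genes was -0.01 in each comparison, as it was over all 13009 genes. Of the 69 genes, 23 separated control 1, control 2 and DMIOA 1 from the rest, 12 with low and 11 with high values on these arrays, which is 33.3%, the same share as among all genes (33.3%). The highest value of 26 of the 69 was under 4.

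Among the genes that remove LPA, the phosphatases PLPP1 and PLPP3 were low on the 3 arrays where ENPP2 was low. PLPP1 lay at 10.35 to 10.47 on control 1, control 2 and DMIOA 1, at 13.12 to 13.17 on DMIOA 2 and DMIOA+20(S) 1 and 2, and at 12.74 to 12.91 on the replicate 3 arrays. PLPP3 lay at 5.19 to 5.71, 8.53 to 8.71 and 8.35 to 8.54 on the same sets, the last 2 of which overlapped, unlike those of the first ENPP2 probe set. The RNA of ENPP2 and of these 2 phosphatases was therefore low on the same 3 arrays and high on the same 6. The second PLPP1 probe set ranged from 9.68 to 9.80 on the low set against 12.12 to 12.55 elsewhere, and the second of PLPP3 from 4.56 to 4.75 against 7.05 to 7.48, while the third of PLPP3 stayed between 1.39 and 2.38. By title, DMIOA+20(S) differed from control by 1.87 (SE 0.82) for PLPP1 and 2.19 (SE 0.97) for PLPP3, with an adjusted p of 0.492 for both in limma. PLPP5, another member of the phosphatase family, went the other way, at 4.96 to 5.27 on the low set for ENPP2 against 3.50 to 4.29 elsewhere, and was named after its values were seen. Of the 12 measured genes of LPA removal, 6, against 33.3% of all genes, separated control 1, control 2 and DMIOA 1 from the rest, 3 in each direction.

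ENPP3, a relative of ENPP2 that hydrolyses nucleotides, was high on the 3 arrays where ENPP2 was low. It lay at 10.59 to 10.66 on control 1, control 2 and DMIOA 1, at 5.33 to 6.08 on DMIOA 2 and DMIOA+20(S) 1 and 2, and at 6.03 to 6.70 on the replicate 3 arrays. Both other ENPP3 probe sets had the same order, from 9.35 to 9.64 against 2.90 to 4.24 and from 4.07 to 5.43 against 1.80 to 2.34. By title DMIOA+20(S) was lower than control by 3.34 (a difference of -3.34, SE 1.52, limma adjusted p 0.492). Of the other ENPP genes, ENPP4 lay between 4.44 and 5.10, and ENPP1, ENPP6 and ENPP7 stayed under 4 on every array, at most at 2.13.

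**Figure D4:**
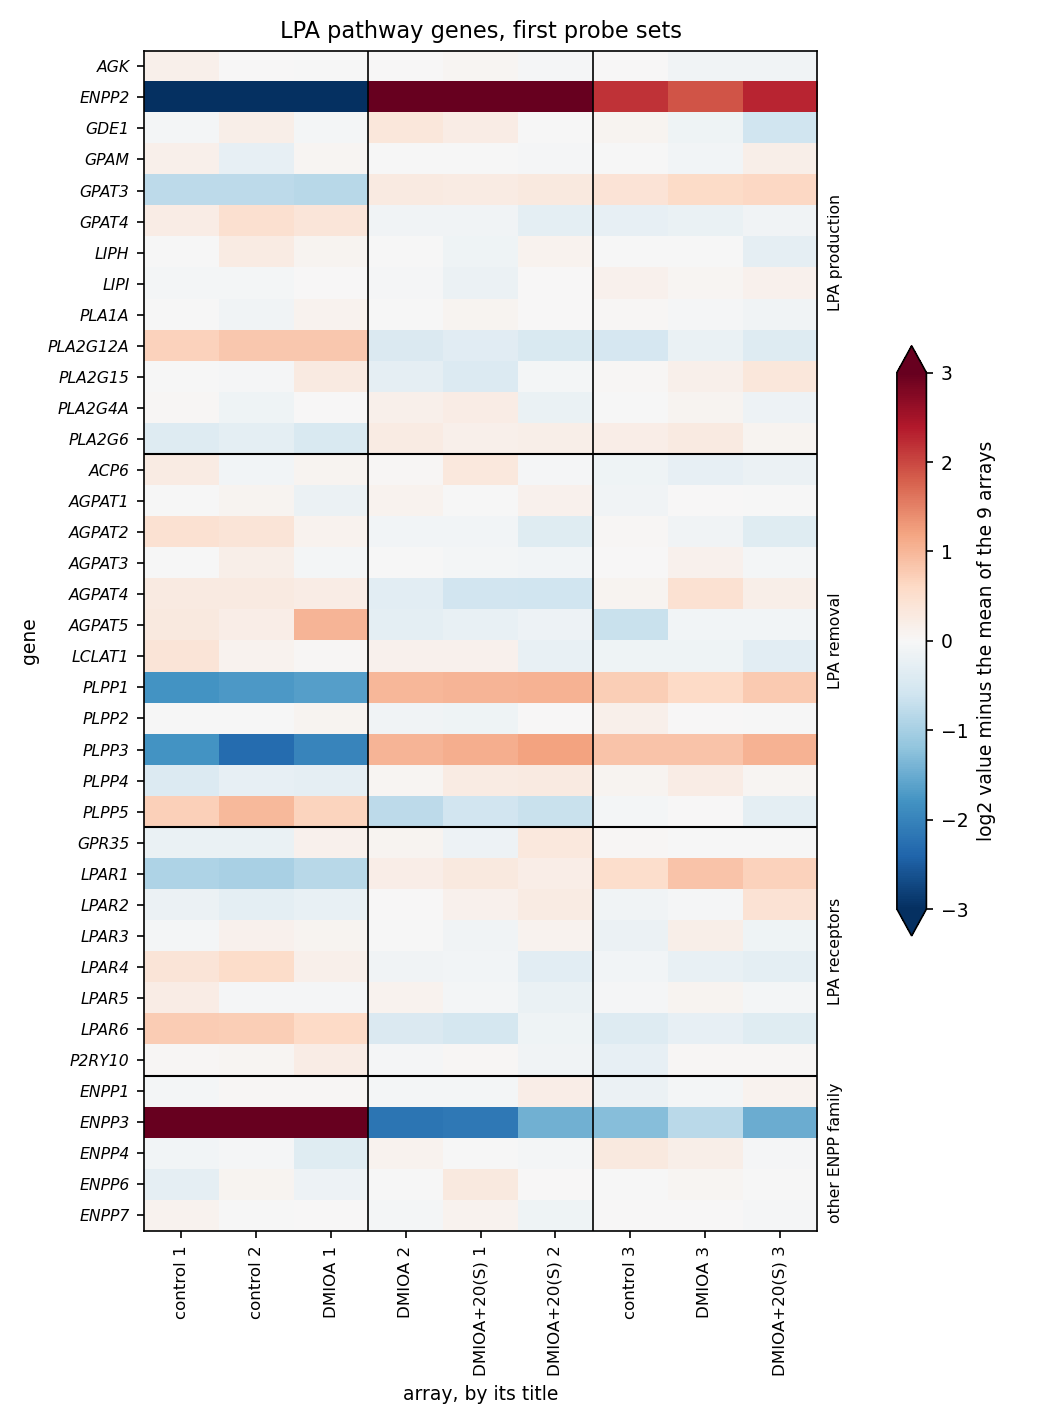
Log2 value of each gene's first probe set minus its mean over the 9 arrays (colour; darkest shades also stand for differences beyond 3) for the measured genes of LPA production, LPA removal, LPA receptors and the other ENPP genes (rows), with arrays in columns by title. ENPP2, PLPP1 and PLPP3 are low and ENPP3 high on control 1, control 2 and DMIOA 1, and most other rows are pale.

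In the other lists, the genes that spanned at least 2 log2 units were LPCAT1, which returns lysophosphatidylcholine to phosphatidylcholine, and S1PR3, a sphingosine 1-phosphate receptor. LPCAT1 lay at 5.69 to 6.32 on control 1, control 2 and DMIOA 1, at 6.81 to 7.24 on the next set and at 7.41 to 7.73 on the replicate 3 arrays, an order that LPAR1 shared. S1PR3 lay at 1.84 to 2.14, 3.44 to 4.28 and 3.44 to 3.45, while its second probe set stayed between 1.54 and 2.17. The values of S1PR3 are dim, so the size of its difference is uncertain. Of the 69 genes, 5 spanned this much (7.25%, against 6.51% of all genes). Of the 13 measured genes of LPA production, ENPP2 included, none of the others did. Of these 13, 5 separated control 1, control 2 and DMIOA 1 from the rest (38.5%, against 33.3% of all genes). On these arrays 3 had low values, ENPP2 among them, and 2 had high values. GPAT3, which makes LPA inside the cell on the way to triglyceride, lay at 7.68 to 7.74, 8.76 to 8.81 and 8.94 to 9.14, and PLA2G12A, a secreted phospholipase, at 8.59 to 8.72 against 7.41 to 7.72 (both named after their values were seen). Of the 17 measured receptor coupling genes, among them G protein subunits, 4 (23.5%, against 33.3% of all genes) separated control 1, control 2 and DMIOA 1 from the rest, and none spanned 2 log2 units.

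The neighbours of the 4 genes on the chromosomes were read from the RefSeq annotation of the assembly GRCg7b, by name only, since the build behind the array is not given in the sources used here. ENPP2 lies on chromosome 2 between CCN3, a matricellular protein gene, and TAF2, a general transcription factor gene. CCN3 lay at 11.64 to 11.90 on control 1, control 2 and DMIOA 1, at 12.54 to 12.58 on the next set and at 11.92 to 12.22 on the replicate 3 arrays, so it had the order of ENPP2 over a span of 0.95, and TAF2 overlapped between sets (7.96 to 8.55). LPAR1 lies on chromosome Z, where the nearest genes with a probe set, MUSK (2.55 to 3.01) and NPR1 (1.24 to 1.66), were dim on all arrays. LPAR4 lies on chromosome 4 beside P2RY10 and LOC422150, the latter at 1.60 to 2.24 on the set where LPAR4 was highest and at 3.80 to 4.54 elsewhere. The values of LOC422150 are dim, so the size of this difference is uncertain. LPAR6 lies on chromosome 1 within RB1, the retinoblastoma gene, and the first RB1 probe set was also higher on control 1, control 2 and DMIOA 1 (7.92 to 8.30) than on the other 6 arrays (7.14 to 7.76). The second RB1 probe set had the same order (6.0 to 6.30 against 5.78 to 5.94), and the third, which is dim, overlapped (2.05 to 2.45 against 2.02 to 2.71). LPAR6 and RB1 have separate probe sets, and whether the signal of one bears on the other was not tested. Outside RB1, ITM2B (12.27 to 12.46) and RCBTB2 (2.32 to 2.76) flank LPAR6. ITM2B was slightly lower on control 1, control 2 and DMIOA 1 (12.27 to 12.28 against 12.31 to 12.46), opposite to LPAR6. Of all genes, 33.3% separated these arrays from the rest in either direction.

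For each of the 4 genes, the 5 genes with the highest Pearson r over the 9 arrays were drawn from 7186 genes that reached a log2 value of 4. These r are descriptions, since the 9 arrays fall into few sets and any gene that separates the sets in the same direction scores high. For ENPP2 they were SESN3 (a stress-responsive sestrin), EBF3 (a transcription factor), TGFBR2L, SH3BP5 and ADAMTS9 (a secreted protease), with r of 0.998 to 0.999, and 507 genes (7.06%) had an r above 0.95. ADAMTS9 came nearest in size, at 2.05 to 2.17 on control 1, control 2 and DMIOA 1, 8.72 to 9.16 on the next set and 8.15 to 8.44 on the replicate 3 arrays. PLPP1 reached 0.998 and PLPP3 0.994 with ENPP2. For LPAR1 the genes were SLC38A2 (an amino acid transporter), CREG1, LOC107049264, IL8L2 (a chicken chemokine) and OSGIN1, with r of 0.990 to 0.998 and 238 genes (3.31%) above 0.95. All of these 5 were highest on the replicate 3 arrays, IL8L2 at 10.60 to 11.85 there against 3.51 to 4.41 and 8.68 to 9.76.

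For LPAR4 the nearest were PSMA2 (a proteasome subunit), KRT14 (a keratin), ITPR2 (an intracellular calcium channel), GTF2A2 and IDH3A (a mitochondrial dehydrogenase subunit), with r of 0.978 to 0.986 and 110 genes (1.53%) above 0.95. Their own differences were mostly as small as that of LPAR4, with PSMA2 at 10.96 to 11.20 on control 1, control 2 and DMIOA 1 and at 10.43 to 10.63 elsewhere. For LPAR6 they were LOC417536, PI16, LY96 (a partner of the endotoxin receptor), IGFBP7 and TP53I11, with r of 0.989 to 0.991 and 391 genes (5.44%) above 0.95. PI16 lay at 7.20 to 7.49 on the 3 arrays and at 3.67 to 4.30 elsewhere, and IGFBP7, a secreted binding protein, at 10.42 to 10.62 and 7.06 to 7.67.

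Markers of several cell types differed between the same sets. Of 11 stromal preadipocyte markers, 5 were lower and 2 higher on control 1, control 2 and DMIOA 1, against 33.3% of all genes in either direction. None of these 11 spanned 2 log2 units, and PDGFRA, among the 5 lower, is dim (1.05 to 1.28 against 1.34 to 2.15). Of 6 measured skeletal muscle markers 1 was lower on these arrays, the dim MYOG (1.31 to 1.41 against 1.47 to 1.70). The highest values of 5 of the 6 were under 4. The 4 mesothelial markers and 1 erythroid marker measured overlapped between these arrays and the other 6. KRT7, a mesothelial marker, still differed between the 3 sets, at 11.43 to 11.59, 11.64 to 11.89 and 11.07 to 11.18. The mesothelial sum, at 2840 to 3150, 3250 to 3860 and 2190 to 2370, rested almost wholly on KRT7 and adds little to it. LRRN4 had another order, at 5.98 to 6.54, 5.75 to 6.11 and 4.50 to 5.73, and MSLN and BNC1 were dim. In bulk RNA, fewer cells of a type and less RNA per cell cannot be told apart. Of 12 adipocyte markers, FABP4, PLIN2, CIDEC and CD36 spanned at least 2 log2 units, and FABP4, a fatty acid carrier, lay at 10.04 to 10.23 on control 1, control 2 and DMIOA 1, at 13.60 to 13.73 on the next set and at 13.39 to 13.42 on the replicate 3 arrays. Over the whole list 6 markers were lower and 2 higher on the first 3 arrays, where 33.3% of all genes separated them in either direction. The 2 higher ones, LEPR and SCD, are dim. So are PLIN1 (1.75 to 1.94 against 2.0 to 2.54) and ADIPOQ (2.55 to 2.89 against 2.93 to 3.78) among the lower ones. PPARG, the master regulator of fat cell formation, overlapped, at 8.93 to 9.30 there against 7.95 to 9.0. The highest values of 6 of the 12, among them CEBPA and ADIPOQ, were under 4. The sum of the list on the linear scale was 2730 to 3520, 18000 to 21000 and 16300 to 18500 on the 3 sets, and by title 2730 to 16500 in control, 3520 to 18000 in DMIOA and 18500 to 21000 in DMIOA+20(S). FABP4 was the brightest member on all arrays but control 1 and DMIOA 1, where PLIN2 was brighter. Of 11 measured macrophage and leukocyte markers, 8 were higher on control 1, control 2 and DMIOA 1 than on the rest and none lower, where 33.3% of all genes separated these arrays in either direction. The highest values of 5 of the 11 were under 4. Those higher included PTPRC at 5.12 to 5.37 against 1.94 to 2.67 and NCF4, a subunit of the phagocyte oxidase, at 6.29 to 6.59 against 1.31 to 1.84. Both were dim on the other 6 arrays, so the size of these differences is uncertain. The brightest of the 11 was LY86, at 6.43 to 6.97 against 5.31 to 5.83. The summed signal of all 11 was 285 to 356 on control 1, control 2 and DMIOA 1, 110 to 116 on the next set and 99.4 to 124 on the replicate 3 arrays. By title this sum was 105 to 356 in control, 110 to 285 in DMIOA and 99.4 to 116 in DMIOA+20(S). Of 8 endothelial markers, 3 were higher and 1 lower on the first set, against 33.3% of all genes in either direction. The highest values of 5 of the 8 were under 4. The sum of this list, 743 to 821 on the first set and 365 to 466 on the others, rested mainly on ERG (9.22 to 9.38 against 8.25 to 8.70) and CDH5 (6.74 to 7.14 against 3.94 to 6.15). The part of these cells in the values of ENPP2 and the receptors was not tested.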

How the data were processed

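Preadipocyte RNA was measured on 9 arrays, 3 by title for each of control, DMIOA and DMIOA+20(S), and groups were taken from the titles alone. The authors ran GCRMA in FlexArray on the scans, and no version is given in the sources used here. The deposited log2 values, 1 per probe set, are thus already corrected for background and normalized, and they were used unchanged. GCRMA draws dim probe sets toward a floor, which makes differences between dim values unsure. After 96 control probe sets were left out, 38439 were tested, of which 27168 have 1 symbol, 177 several (not named) and 11094 none. A gene's probe set of highest mean is its first.

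A two-sided limma fit (version 3.58.1, R 4.3.3) used all 9 arrays, with Benjamini-Hochberg adjustment over all probe sets. The step was tried on simulated data for DMIOA against control. It recovered 42% of shifts of 1 log2 unit and 96% of shifts of 2, with 6 false calls. The simulated noise was independent between arrays, so this does not cover arrays that fall into sets across titles, as here. Tables used pandas 2.3.3, scipy 1.17.1 and numpy 2.4.6 under Python 3.11.15, and plots used matplotlib 3.10.9. The 4 genes, the 7 pathway lists and the 7 marker lists (stromal, adipocyte, macrophage and leukocyte, endothelial, mesothelial, skeletal muscle, erythroid) were chosen with earlier results of these data known. Named genes are the 4 with every probe set, listed pathway genes that span at least 2 log2 units, the 5 genes most alike each of the 4, the nearest genes on either side and RB1. Others are given as background, as list members or as named after their values were seen. Mesothelial (4 of 8 measured), skeletal muscle (6 of 7) and erythroid (1 of 7) markers summed to 2190 to 3860, 28.1 to 43.3 and 2.90 to 4.78 over the arrays.

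Alternatives tried were a block for the replicate number, the replicate 3 wording as a batch, replicates 1 and 2 only, replicate 3 only (added after the data were seen), only the arrays compared, each array left out, quantile normalization, median centring, a filter on dim probe sets, eBayes with trend and robust, the methods' t-test, no minimum difference, the mean over a gene's probe sets and Spearman correlation. Sequences of the probes and genes were not used here.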

Additional observations from a re-analysis of the deposited data

How the results depend on the processing

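For DMIOA+20(S) against control, the 2 probe sets called became 0 with the replicate block, the replicate 3 wording as a batch, only the arrays of the 2 groups, replicates 1 and 2 only, the filter on dim probe sets, eBayes with trend and robust, the methods' t-test after Benjamini-Hochberg, and with any of the 9 arrays left out (range 0 to 0), and became 1 with quantile normalization. The methods' t-test without adjustment called 1 probe set between DMIOA and control, 5 between DMIOA+20(S) and DMIOA, and 221 between DMIOA+20(S) and control, the last with 1 of the 69 pathway genes. The cause of these changes was not tested.

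Replicate 3 alone gave 0.09 for ENPP2, -0.20 for LPAR4 and 0.02 for LPAR6 in DMIOA+20(S) against control, and 0.14 for LPAR6 in DMIOA against control. The mean over all LPAR4 probe sets gave 0.09 for DMIOA+20(S) against DMIOA and -0.09 for DMIOA+20(S) against control. Across 17 alternatives, the ENPP2 difference ranged from -0.30 to 5.10 between DMIOA and control, from 0.32 to 4.59 between DMIOA+20(S) and DMIOA, and from 0.09 to 8.09 between DMIOA+20(S) and control. The tree of arrays found 3 of the 3 sets with the filter on dim probe sets and 1 without it.

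The replicate numbers were not taken to pair the arrays, since nothing in the sources used here ties an array to a hen. Deviations from the group means correlated at -0.56 to 0.70 between arrays of the same number and at -0.83 to 0.75 between others. The group means mix arrays of unlike sets, so these correlations cannot show whether the arrays are paired. Among the 3 arrays titled replicate 3 they were 0.70, 0.08 and 0.20. With the replicate block, ENPP2 differences stayed at 2.45, 2.97 and 5.43 with an SE of 2.21, the SE became 0.29 for LPAR1, 0.14 for LPAR4 and 0.33 for LPAR6, and 0, 0 and 0 probe sets were called in the 3 comparisons. With 3 arrays a group, whose spread includes arrays that lie with another title, the SE without the block was 0.50 for LPAR1, 0.18 for LPAR4 and 0.36 for LPAR6. Values under about 4 were taken as dim, and differences between them are unsure.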
